A study of Mus musculus with 8 samples.

Results

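The genes described here are 41 well-known genes of DNA replication and mitosis. Of these, 19 act in the preparation or execution of S phase. The other 22, called mitotic here, act for the most part from the entry into mitosis to the separation of the daughter cells. The 22 include Ccna2, which acts in S phase and G2, and the transcription factor gene Foxm1. They were chosen by name, and all 41 were found by symbol among the 30387 genes of the deposited table, and each was among the 18800 genes that averaged 5 or more normalized counts across libraries and were tested. The members and their split into phases were taken from textbook roles, with earlier results of these data known.

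The values come from RNA-seq of white adipocytes isolated from the epididymal fat of mice. The study compared wild-type littermates (WT) with Ad-Yap/Taz-KO mice (KO), which carry floxed alleles of Yap and Taz and a Cre recombinase under the adiponectin promoter (Yap fl/fl;Taz fl/fl with Adipoq-Cre), on normal chow (NC) or a high-fat diet (HFD). Each diet was given for 4 weeks, from week 5 of age according to the labels (the study's general methods, written for all its mice, give a slightly later start), and the question behind the design was how YAP and TAZ, transcriptional co-activators of the Hippo pathway, act in adipocytes during obesity. There were 4 groups with 2 libraries each, which the study describes as 2 mice per group: WT NC, KO NC, WT HFD and KO HFD. Adiponectin is made by adipocytes, so the knockout is a model of loss in adipocytes, and the other cell types of fat keep both genes. The controls of the study's tamoxifen-inducible line were floxed littermates, and the genotype of the WT mice used here at the floxed loci was not given in the sources used here. A library of isolated adipocytes can hold RNA of other cells of the tissue, and in such bulk samples fewer cells of a type and less RNA per cell cannot be told apart.

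The libraries held an estimated 13990086 to 22325042 reads on genes, and 1 read was worth between 0.795 and 1.13 normalized counts, so a value listed at 0 allows up to 3 reads. These limits cover counting error only. Wwtr1, which encodes TAZ, read 5594 and 4743 in WT NC, 2441 and 1957 in KO NC, 7121 and 6807 in WT HFD and 2060 and 2707 in KO HFD. Yap1 read 2776 and 2717 in WT NC, 1669 and 1699 in KO NC, 2468 and 2333 in WT HFD and 1549 and 2068 in KO HFD, so that both targeted genes were lower in each KO library than in each WT library of the same diet. The adipocyte markers with the highest means, Car3 and Fabp4, read at least 80487 and 36542 in every library. The WT HFD libraries differed little: among genes with 1000 to 5000 normalized counts by 5.64 times the Poisson variance, against 17.0 times or more in the other groups, although at 5 to 20 counts they were like WT NC and KO HFD (5.74 against 5.84 and 5.58). Whether the pair comes from separate mice or is a repeat of 1 preparation was not tested. Whether reads were counted by strand is not given in the sources used here, and exons of Gins2 (67.3% of their length), Kif20a (29.3%), Ube2c (22.8%), Ccne2 (17.4%), Ccna2 (12.5%) and Prc1 (11.1%) overlap a gene on the opposite strand, so the values of these 6 members are uncertain. The main counts of called members are also given with the WT HFD pair averaged to 1 sample, beside the share of all genes called in the same fit.

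Before a cell copies its DNA, the origin recognition complex, Cdc6 and Cdt1 load a ring of MCM proteins onto each origin, and Cdc45 and the GINS complex turn that ring into the active helicase, while PCNA clamps the polymerases to the template. Transcription of these genes is largely driven by E2F factors at the passage from G1 to S phase. Genes of mitosis peak later in the cycle, under the DREAM and MuvB complexes with B-MYB and FOXM1, which act through the cell cycle genes homology region (CHR) and CCAAT boxes. Mature white adipocytes are known as cells that have left the cell cycle, whereas adipocyte progenitors, endothelial cells and macrophages of fat can divide.

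The promoter windows of the members held the letters of these elements unequally between the phases. RefSeq windows on GRCm38.p6, from 250 bases before to 50 bases after the transcription start, were at hand for 32 of the 41 members (15 of S phase, 17 of mitosis) and for 27025 genes in all. An E2F core, spelled TTCCCGC, or alternatively TTGGCGC, or further TTCGCGC, or else TTGCCGC, on either strand, was in the windows of 8 of the 15 S phase members (53.3%), 3 of the 17 mitotic members (17.6%) and 10.9% of all genes. The CHR, spelled TTTGAA or its variant TTCGAA on either strand, was in 3 of the 15 (20.0%), 13 of the 17 (76.5%) and 21.7% of all genes. CCAAT boxes were in 66.7% of the S phase members, 88.2% of the mitotic members and 41.1% of all genes, and TTGGCGC shares letters with the reversed CCAAT box, so that 1 stretch can hold both. GGAATG, the core bound by TEAD factors, the partners of YAP and TAZ, was in 1 S phase member and 2 mitotic members (6.67% and 11.8%), against 16.6% of all genes. These are matches of letters in 1 fixed window, a description and not sites of binding.

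The windows of 6 members of both phases are printed as examples, chosen among those that hold an E2F core or CHR letters. Each is given as the 250 bases before the start, 5′ to 3′ on the strand of the gene, with E2F cores and CHR letters in capitals. Mki67 lies at chr7:135716380-135716629 on the minus strand, Top2a at chr11:99024190-99024439 on the minus strand and Cdk1 at chr10:69352913-69353162 on the minus strand. Mcm5 lies at chr8:75109259-75109508 on the plus strand, Mcm6 at chr1:128359706-128359955 on the minus strand and Mcm7 at chr5:138171884-138172133 on the minus strand.
Mki67: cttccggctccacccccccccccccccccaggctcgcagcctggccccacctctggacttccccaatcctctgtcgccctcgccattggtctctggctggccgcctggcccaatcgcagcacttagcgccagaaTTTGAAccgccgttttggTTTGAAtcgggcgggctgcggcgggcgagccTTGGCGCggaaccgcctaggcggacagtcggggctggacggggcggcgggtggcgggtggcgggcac
Top2a: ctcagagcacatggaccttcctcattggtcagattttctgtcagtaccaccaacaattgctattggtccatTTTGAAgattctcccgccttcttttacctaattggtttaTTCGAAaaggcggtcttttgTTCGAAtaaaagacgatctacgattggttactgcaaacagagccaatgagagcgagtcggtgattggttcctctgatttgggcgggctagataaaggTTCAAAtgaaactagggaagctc
Cdk1: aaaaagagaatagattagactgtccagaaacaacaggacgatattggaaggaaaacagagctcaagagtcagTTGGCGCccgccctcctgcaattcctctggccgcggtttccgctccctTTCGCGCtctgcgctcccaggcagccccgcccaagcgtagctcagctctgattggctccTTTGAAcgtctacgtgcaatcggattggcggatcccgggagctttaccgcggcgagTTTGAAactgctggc
Mcm5: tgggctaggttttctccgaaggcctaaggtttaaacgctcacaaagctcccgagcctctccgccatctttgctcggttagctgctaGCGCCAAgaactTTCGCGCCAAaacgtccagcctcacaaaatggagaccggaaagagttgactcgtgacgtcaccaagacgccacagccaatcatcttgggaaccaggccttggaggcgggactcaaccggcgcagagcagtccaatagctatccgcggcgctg
Mcm6: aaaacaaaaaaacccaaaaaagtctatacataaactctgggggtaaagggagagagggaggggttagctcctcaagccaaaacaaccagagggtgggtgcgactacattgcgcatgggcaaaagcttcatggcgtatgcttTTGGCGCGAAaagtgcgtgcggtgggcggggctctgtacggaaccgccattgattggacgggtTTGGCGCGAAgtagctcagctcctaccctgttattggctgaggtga
Mcm7: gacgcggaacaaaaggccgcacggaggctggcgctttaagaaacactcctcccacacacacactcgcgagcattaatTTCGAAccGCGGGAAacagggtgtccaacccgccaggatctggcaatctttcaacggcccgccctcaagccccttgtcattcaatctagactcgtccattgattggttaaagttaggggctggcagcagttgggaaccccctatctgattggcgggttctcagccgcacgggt
In the Mki67 window the CHR letters begin 116 and 98 bases before the start and the E2F core 67 bases before it. The Top2a window has CHR letters at 179, 140, 120 and 23 bases before the start and no E2F core. In Mcm6 the E2F cores form overlapping pairs on opposite strands, which begin 109 and 106 and again 46 and 43 bases before the start, with no CHR letters. Cdk1 and Mcm7, like Mki67, hold both elements, so these 6 windows do not stand for the shares of the phases.

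**Figure D1:**
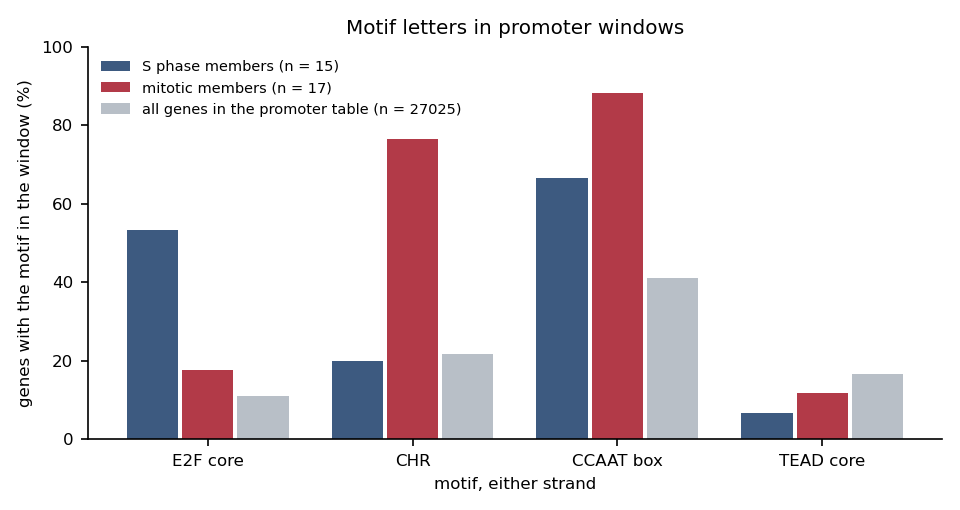
Share of genes (vertical axis, percent) whose promoter window holds each motif on either strand, for 15 S phase members, 17 mitotic members and all 27025 genes with a window. The E2F core is most frequent in the S phase members (53.3%) and the CHR in the mitotic members (76.5%).

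On HFD, genes of both phases were higher in KO than in WT, with a median log2 fold change of 2.28 over the mitotic and 1.02 over the S phase members. Of the 41 members, 28 passed the test of KO against WT on HFD, which asks for a limma p of 0.05 or less after Benjamini-Hochberg adjustment together with a change of 0.59 or more on the log2 scale, and all 28 were higher in KO. Of all genes, 32.2% were called in this comparison and 17.1% were called higher in KO. The median log2 fold change was 1.75 over the members and 0.09 over all genes, and both KO HFD libraries lay above both WT HFD libraries in 34 of the 41 members, against 36.5% of all genes. With the WT HFD pair averaged to 1 sample, 24 of the 28 were still called (7 of S phase and 17 mitotic), where 18.3% of all genes were called and 10.2% were called higher. Among the 28, 18 kept their call under every alternative in which they were tested, leaving out each library of the groups compared included. After scaling of the libraries to the same total, the median of all genes moved to 0.47 and 24.6% of all genes were called higher in KO, while 32 members were called, all higher in KO, with medians of 1.41 for S phase and 2.67 for mitotic members.

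**Figure D2:**
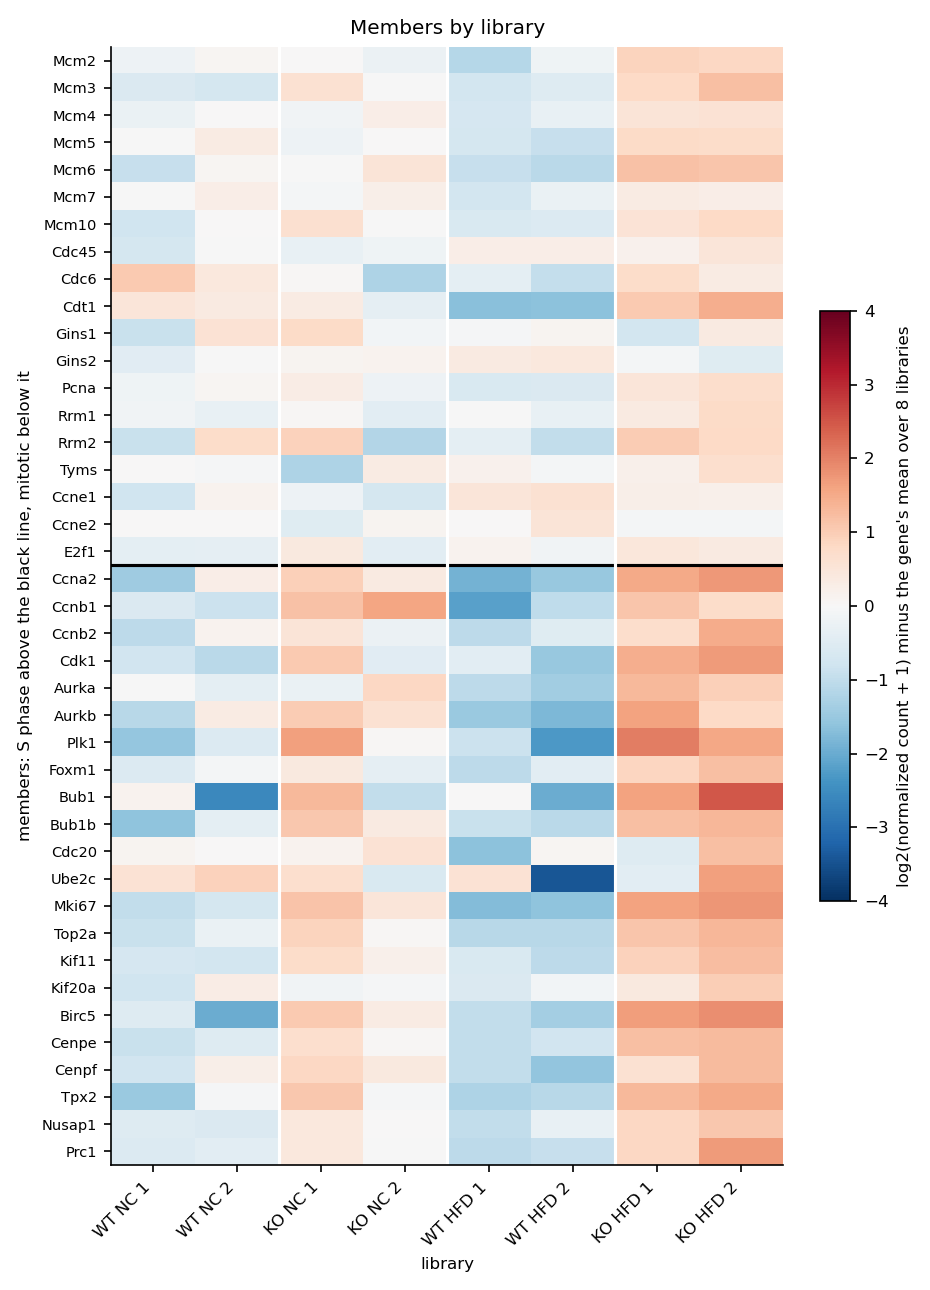
Values of the 41 members (rows) in the 8 libraries (columns), as log2(normalized count + 1) minus the gene's mean over the 8 libraries; red is above and blue below the mean. The KO HFD columns are red in most rows, more deeply below the black line, where the mitotic members stand.

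The helicase and its loaders gave 8 of the 10 S phase calls. Of the 12 genes of this role, 8 were called higher in KO on HFD, with a median log2 fold change of 1.22. Cdt1, the factor that loads the MCM ring and is destroyed once S phase begins, read 149 and 137 in WT NC, 134 and 84 in KO NC, 33 and 34 in WT HFD and 221 and 293 in KO HFD. On HFD its log2 fold change was 2.89 ± 0.34 (SE, limma adjusted p = 4.16e-05), the largest of the S phase members, and its WT HFD values were also the lowest of the 4 groups. Mcm6, a subunit of the ring, read 130 and 260, 245 and 354, 129 and 116, and 552 and 534 in the same order of groups. Its log2 fold change on HFD was 2.14 ± 0.31 (limma adjusted p = 0.000245), or 4.41-fold, and the KO HFD values were also the highest of the 4 groups.

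The other subunits of the MCM ring rose by less. Mcm2 read 173 and 211 in WT NC, 203 and 170 in KO NC, 90 and 178 in WT HFD and 372 and 356 in KO HFD (log2 fold change on HFD 1.52 ± 0.31). For Mcm3 the values were 167 and 153, 381 and 249, 152 and 176, and 434 and 577 (1.61 ± 0.26), so that KO NC also lay above WT NC. Mcm5 had 267 and 337, 232 and 272, 164 and 141, and 456 and 451 (1.57 ± 0.23). Only the KO HFD pair stood high in Mcm5, while the KO NC and WT NC values overlapped. Mcm4 read 257 and 317, 284 and 377, 197 and 254, and 446 and 465 (1.02 ± 0.23), and Mcm7 312 and 382, 296 and 375, 189 and 263, and 394 and 377, the smallest called change of the ring (0.79 ± 0.24). Mcm10, which is needed for the helicase to fire, read 94 and 166, 261 and 163, 107 and 113, and 242 and 288 (1.26 ± 0.33). The limma adjusted p of these 6 genes lay between 0.00023 for Mcm5 and 0.0215 for Mcm7.

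The genes that complete or start the helicase did not all follow. Cdc45, which joins the MCM ring at firing, differed by 0.06 with a 95% interval from -0.55 to 0.66 on HFD. Gins1, a GINS subunit with a mean of 29.1 normalized counts, differed by -0.20 (interval -1.66 to 1.26). Gins2 read 261 and 276 in WT HFD and 196 and 146 in KO HFD, a difference of -0.66 (interval -1.22 to -0.10, limma adjusted p = 0.0644), and Gse1 lies on its opposite strand. Without KO HFD replicate 1, Gins2 was called lower in KO (-0.87, adjusted p = 0.0426). Cdc6, which recruits the MCM ring to the origin, had 125 and 82 in WT NC, 63 and 25 in KO NC, 46 and 31 in WT HFD and 101 and 76 in KO HFD. On HFD its 1.19 ± 0.50 missed the threshold (limma adjusted p = 0.0803), although the groups did not overlap. After scaling to the same total Cdc6 was called higher in KO (1.57, adjusted p = 0.0328).

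Pcna, the sliding clamp, was the member with the highest level per length, with a mean of 379 normalized counts per kb of exon over the 8 libraries. It read 769 and 915 in WT NC, 1058 and 756 in KO NC, 570 and 580 in WT HFD and 1214 and 1410 in KO HFD, a log2 fold change on HFD of 1.18 ± 0.19 (limma adjusted p = 0.000543). Rrm1, the large subunit of ribonucleotide reductase, which makes deoxynucleotides, read 296 and 266, 336 and 245, 324 and 265, and 425 and 559 (0.73 ± 0.24, adjusted p = 0.0306). Its partner Rrm2, whose level limits the enzyme in S phase, had 62 and 41 in WT HFD and 165 and 142 in KO HFD, and its 1.58 ± 0.63 was not called (adjusted p = 0.0707), except in a fit of only the groups compared (0.0178) and after scaling to the same total (0.0355). Tyms, thymidylate synthase, differed by 0.40 (interval -0.66 to 1.45).

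None of the 3 regulators of the passage from G1 to S phase was called. Cyclin E1 (Ccne1) read 57 and 110 in WT NC, 86 and 60 in KO NC, 140 and 152 in WT HFD and 116 and 113 in KO HFD, and cyclin E2 (Ccne2) 77 and 78, 54 and 83, 78 and 109, and 73 and 72. On HFD both cyclins were lower in each KO library than in each WT library, by values that missed the threshold: -0.35 (interval -1.16 to 0.47) and -0.34 (interval -1.16 to 0.47). E2f1, the factor itself, read 107 and 110, 185 and 106, 156 and 128, and 194 and 184, a difference on HFD of 0.42 (interval -0.26 to 1.10). By limma they were called in none of the 5 comparisons, and none reached an unadjusted p of 0.05 in KO against WT on either diet.

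The calls of 4 S phase genes were lost when a library of the HFD groups was left out, which also leaves fewer libraries in the fit. Without WT HFD replicate 1, Mcm4, Mcm7, Mcm10 and Rrm1 missed the threshold, with log2 fold changes of 0.84, 0.55, 1.22 and 0.88 and limma adjusted p of 0.065, 0.195, 0.0667 and 0.0671. Mcm10 and Rrm1 also missed it without WT HFD replicate 2 (1.29 and 0.59, adjusted p of 0.0588 and 0.206). Without KO HFD replicate 2, Mcm7, Mcm10 and Rrm1 stood at 0.82, 1.13 and 0.53 (adjusted p of 0.0672, 0.0782 and 0.203), and Mcm7 was lost without KO HFD replicate 1 (0.76, adjusted p = 0.0662). With the WT HFD pair averaged, Mcm7, Mcm10 and Rrm1 were not called (adjusted p of 0.0907, 0.0675 and 0.131).

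**Figure D3:**
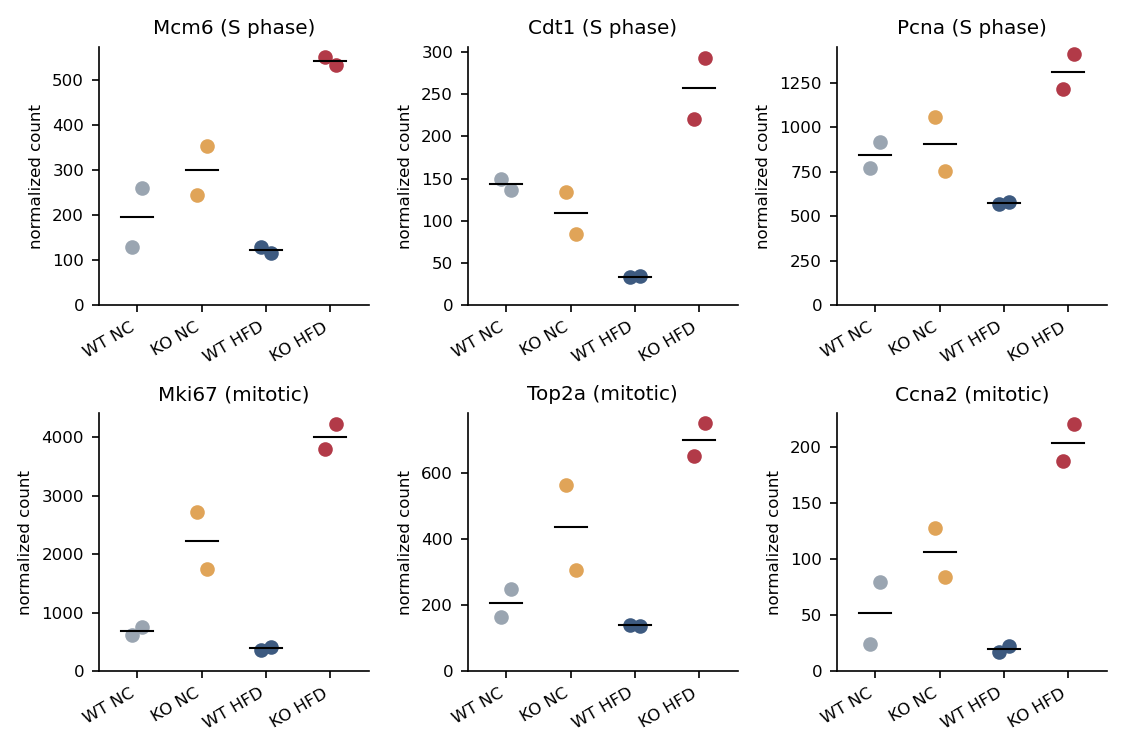
Normalized counts of 3 S phase members (upper row) and 3 mitotic members (lower row) in the 4 groups; each point is 1 library and the line is the mean of the pair. In all 6 genes both KO HFD points lie above both WT HFD points, and in Mki67, Top2a and Ccna2 both KO NC points also lie above both WT NC points.

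All 22 mitotic members had a positive difference on HFD, and 18 were called higher in KO. Mki67, which encodes the proliferation marker Ki-67 and coats mitotic chromosomes, read 617 and 758 in WT NC, 2732 and 1739 in KO NC, 369 and 408 in WT HFD and 3796 and 4226 in KO HFD. Its log2 fold change on HFD was 3.36 ± 0.21, or 10.3-fold (limma adjusted p = 2.55e-07), and its mean of 182 normalized counts per kb of exon was the highest among the members after that of Pcna. Top2a, the topoisomerase that untangles sister chromosomes, read 163 and 249, 564 and 308, 140 and 138, and 652 and 752 (2.32 ± 0.29, adjusted p = 8.02e-05). In both genes the KO groups on either diet lay above the WT groups on either diet, with no overlap.

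The cyclins and kinases that drive mitosis were all called higher on HFD, 8 of 8 in this role with the factor FOXM1, with a median log2 fold change of 2.52. Cyclin A2 (Ccna2), which acts in S phase and G2, read 24 and 79 in WT NC, 128 and 84 in KO NC, 17 and 22 in WT HFD and 187 and 220 in KO HFD (3.32 ± 0.52, limma adjusted p = 0.000403). Cyclin B1 (Ccnb1), the partner of CDK1 at mitotic entry, read 11 and 9, 40 and 53, 3 and 8, and 38 and 29 (2.51 ± 0.70, adjusted p = 0.0145). It was the only called member in which the mean of KO NC exceeded that of KO HFD. Cyclin B2 (Ccnb2) had 29 and 67, 87 and 52, 29 and 43, and 99 and 173 (1.86 ± 0.51), and Cdk1 itself 24 and 19, 87 and 30, 31 and 14, and 116 and 137 (2.54 ± 0.59).

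The Aurora and polo-like kinases were low in the WT groups and rested on few reads there. Aurora A (Aurka), which matures the spindle poles, read 30 and 23 in WT NC, 25 and 55 in KO NC, 14 and 11 in WT HFD and 76 and 60 in KO HFD (2.35 ± 0.57). Aurora B (Aurkb), the kinase of the chromosomal passenger complex, had 12 and 34, 56 and 42, 9 and 7, and 84 and 48 (2.85 ± 0.64). Plk1, the polo-like kinase, read 4 and 9, 45 and 14, 7 and 2, and 59 and 42, a log2 fold change of 3.37 with the wide 95% interval of 1.53 to 5.22. With a pseudocount of 8 the values of Plk1, Ccnb1 and Aurkb were 2.24, 1.64 and 2.17. After quantile normalization those of Plk1, Ccnb1, Aurkb and Aurka were 2.40, 1.73, 2.06 and 1.72, and Ccnb1 was then not called (limma adjusted p = 0.0818). For Plk1 the value was 4.08 without WT HFD replicate 1 and 2.67 without WT HFD replicate 2. FOXM1, the factor that activates many of these genes, had a transcript (Foxm1) of 55 and 78, 107 and 64, 39 and 61, and 148 and 188 (1.75 ± 0.40, limma adjusted p = 0.0052).

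Genes of the chromosomes, the spindle and cytokinesis were called in 9 of 10 cases, with a median log2 fold change of 2.23 on HFD. Birc5 (survivin), the partner of Aurora B, read 24 and 8 in WT NC, 73 and 44 in KO NC, 17 and 13 in WT HFD and 113 and 130 in KO HFD (2.94 ± 0.59). Tpx2, which activates Aurora A on the spindle, had 37 and 100, 223 and 101, 44 and 48, and 258 and 303 (2.58 ± 0.47). Prc1, a bundler of microtubules at the midzone, had 66 and 73, 130 and 96, 47 and 51, and 173 and 317 (2.24 ± 0.37). These 3 genes were higher in both KO groups than in the WT group of the same diet. The kinetochore genes Cenpf (44 and 90, 135 and 100, 38 and 25, 117 and 185) and Cenpe (56 and 73, 166 and 108, 52 and 61, 243 and 256) rose by 2.22 ± 0.44 and 2.13 ± 0.34 on HFD. Kif11, the motor that pushes the spindle poles apart, read 70 and 67, 188 and 130, 74 and 54, and 212 and 264 (1.89 ± 0.33), and Nusap1, which binds spindle microtubules, 65 and 62, 124 and 95, 47 and 76, and 165 and 199 (1.58 ± 0.36). The limma adjusted p of these 7 genes lay between 0.000443 for Cenpe and 0.00451 for Nusap1. Kif20a, a kinesin of cytokinesis that overlaps Cdc23 on the opposite strand, had 36 and 50 in WT HFD and 72 and 108 in KO HFD, a difference of 1.04 that was not called (adjusted p = 0.111). It was called after scaling to the same total (1.42, adjusted p = 0.0427).

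The spindle checkpoint and the ubiquitin ligase that ends mitosis gave 1 call in 4 genes, with a median log2 fold change of 2.13. Bub1b, the checkpoint protein BUBR1, read 36 and 85 in WT NC, 241 and 146 in KO NC, 60 and 53 in WT HFD and 258 and 285 in KO HFD (2.25 ± 0.41, limma adjusted p = 0.00117). Its kinase partner Bub1 had only 11 and 2 in WT HFD against 35 and 65 in KO HFD, and its 3.02 ± 1.12 was just outside the threshold (adjusted p = 0.0536) and was called in 5 alternatives, the replicate block, only the groups compared, a pseudocount of 8 and scaling to the same total or the upper quartile (adjusted p from 0.0187 to 0.0488). Cdc20, the activator of the ligase, read 9 and 32 in WT HFD and 21 and 72 in KO HFD, and Ube2c, its conjugating enzyme, 15 and 0 in WT HFD and 7 and 32 in KO HFD. In Cdc20 and Ube2c the groups overlapped, with differences of 1.141 (interval -0.40 to 2.68) and 2.02 (interval -0.64 to 4.68), too imprecise to tell a rise from none at this depth. Ube2c was called only without WT HFD replicate 1 (4.02, adjusted p = 0.0352), which leaves the listed 0 as the lone WT HFD value. Of the 22 mitotic members, 7 had a mean under 50 normalized counts, and so did 1 S phase member.

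Among the mitotic calls, 6 were lost when 1 library was left out. Without WT HFD replicate 1 the log2 fold changes of Ccnb1, Ccnb2, Foxm1 and Nusap1 were 1.93, 1.58, 1.44 and 1.24 (limma adjusted p of 0.0855, 0.0939, 0.0542 and 0.0511). Cdk1 and Plk1 missed the threshold without WT HFD replicate 2 (1.99 and 2.67, adjusted p of 0.0599 and 0.0714). Without KO HFD replicate 1 this befell Ccnb1 and Plk1 (2.32 and 3.13, adjusted p of 0.0809 and 0.0604), and without KO HFD replicate 2 Ccnb1, Ccnb2, Cdk1 and Foxm1 (2.70, 1.46, 2.42 and 1.58, adjusted p of 0.0611, 0.139, 0.0509 and 0.0544). All of these differences kept their sign. With the WT HFD pair averaged, Ccnb2 was not called (adjusted p = 0.0669).

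**Figure D4:**
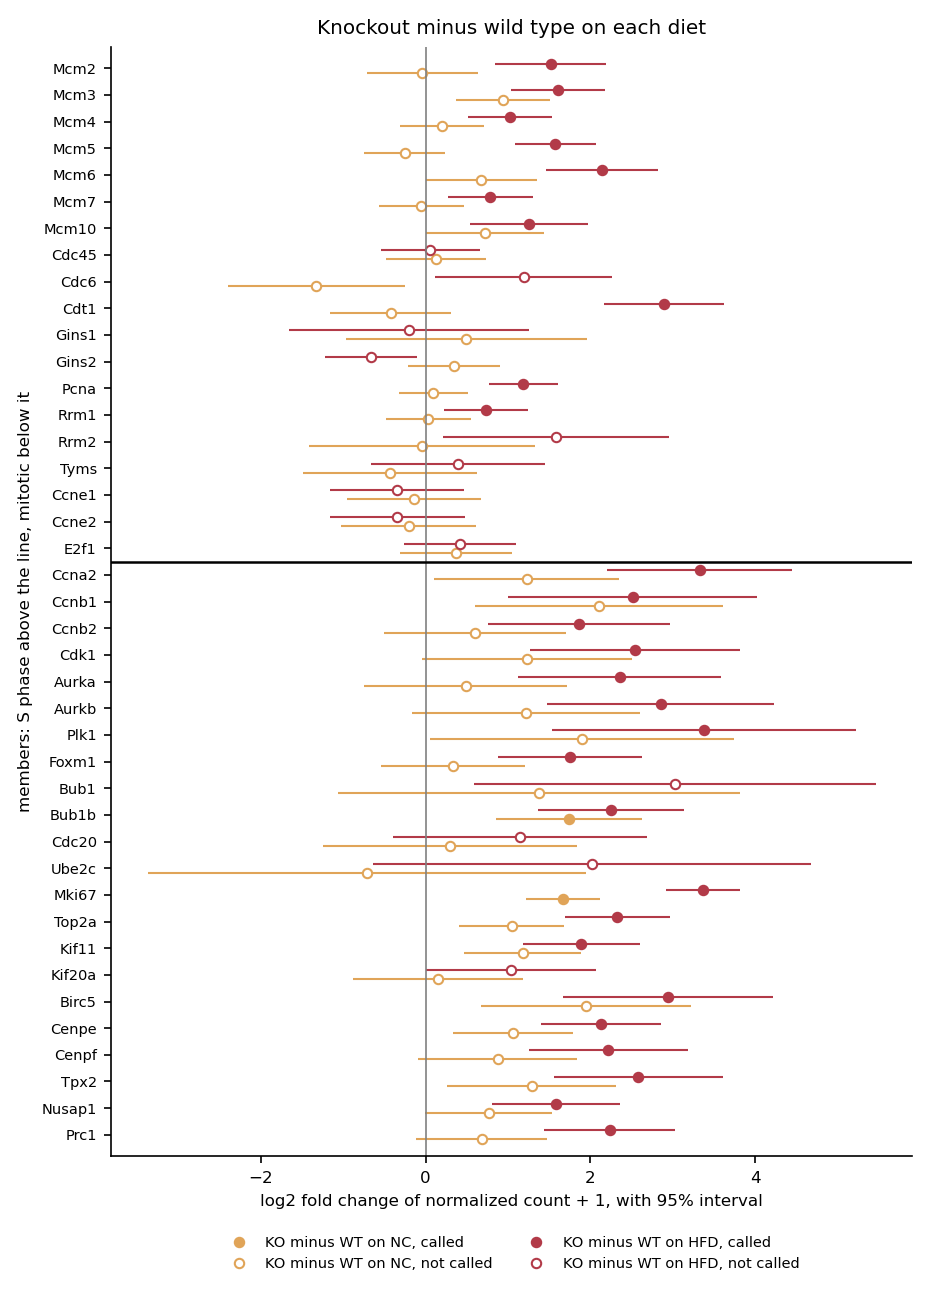
Log2 fold change of KO against WT on NC and on HFD for each member, with the 95% interval from limma; filled points passed the test and open points did not. On HFD the filled points lie between 0.73 and 3.37, and on NC only Bub1b (1.74) and Mki67 (1.67) are filled.

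Set against each other, the ratio of the summed phases separated the genotypes on both diets, whereas the difference of their medians did so on HFD only. The 19 S phase members summed to 3377 and 4159 normalized counts in WT NC, 4425 and 3864 in KO NC, 3031 and 3183 in WT HFD and 5910 and 6459 in KO HFD. The 22 mitotic members summed to 1458 and 2000, 5278 and 3370, 1108 and 1179, and 6929 and 8091. The mitotic sum was thus 0.432 and 0.481 of the S phase sum in WT NC, 0.366 and 0.370 in WT HFD, 1.19 and 0.872 in KO NC and 1.17 and 1.25 in KO HFD, so that all 4 KO libraries lay above all 4 WT libraries. Mki67 weighs heavily in these sums, and without it the ratios were 0.249 and 0.299, 0.244 and 0.242, 0.575 and 0.422, and 0.530 and 0.598 in WT NC, WT HFD, KO NC and KO HFD, with the same separation. A ratio within a library does not depend on its scaling.

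The median log2 value of the S phase members exceeded that of the mitotic members by 1.99 and 1.31 in WT NC, 2.03 and 1.90 in WT HFD, 1.07 and 1.503 in KO NC and 0.92 and 0.68 in KO HFD. On this measure the NC groups overlapped and the HFD groups did not. An exact permutation test of 2 libraries against 2 cannot give a p below 0.333, so the phase difference is given as a description. The median log2 fold change of the S phase members minus that of the mitotic members was -1.26 on HFD and -1.08 on NC, and it stood at -0.64 on NC without KO NC replicate 1.

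On NC few members passed the test, at a share near that of all genes. Bub1b and Mki67 were called higher in KO (1.74 ± 0.41, limma adjusted p = 0.0276, and 1.67 ± 0.21, adjusted p = 0.00038), 2 of 41 members against 4.71% of all genes in either direction and 3.21% called higher in KO. Of the 22 mitotic members, 21 had a positive difference, with a median log2 fold change of 1.12, while the 19 S phase members had a median of 0.03, which lay between -0.02 and 0.03 under the scalings that were tried and so has no direction. Both KO NC libraries lay above both WT NC libraries in 16 of 22 mitotic members and 2 of 19 S phase members, against 22.8% of all genes. No S phase member was called on NC by limma, and 4 had an unadjusted p under 0.05: Mcm3, Mcm6 and Mcm10 with positive differences of 0.94, 0.68 and 0.72, and Cdc6 with -1.33. Cdc6 and Cdt1 were the 2 members in which both KO NC libraries lay below both WT NC libraries.

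Next to the threshold on NC stood Kif11 (1.18 ± 0.33, limma adjusted p = 0.0646), Mcm3 (0.94 ± 0.26, adjusted p = 0.0646), Top2a (1.05 ± 0.29, adjusted p = 0.0675) and Birc5 (1.94 ± 0.59, adjusted p = 0.0911). Kif11 and Top2a read 188 and 130, and 564 and 308, in KO NC, against 70 and 67, and 163 and 249, in WT NC. After quantile normalization Kif11 was called higher in KO on NC (1.22, limma adjusted p = 0.0498). The KO NC libraries themselves differed: KO NC replicate 1 had the higher value in 18 of the 22 mitotic members and 11 of the 19 S phase members, and also in the summed macrophage markers described below (33021 against 19256). Bub1b was lost without WT NC replicate 1 (1.13, adjusted p = 0.234) and without KO NC replicate 1 (1.38, adjusted p = 0.152), whereas Mcm3 and Top2a were called in addition without KO NC replicate 2 (1.25 and 1.48, adjusted p of 0.0296 and 0.0135). With the WT HFD pair averaged, which changes the shared estimate of the spread, Bub1b missed the threshold on NC (adjusted p = 0.0544), where 3.45% of all genes were called. Mki67 kept its call in every alternative that was run.

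Of the 28 members called on HFD, 24 also had a positive difference on NC, and the 95% interval on NC lay above 0 in 13 of them. Of all 3213 genes called higher on HFD, 61.7% had a positive difference on NC and 27.5% an interval above 0. These comparisons share no library. The exceptions were Mcm2, Mcm5, Mcm7 and Cdt1, whose differences on NC were -0.04, -0.26, -0.05 and -0.43.

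By the interaction term (limma), 7 members had a knockout effect that depended on diet, and 36 of the 41 had the more positive difference on HFD. The 7 are 17.1% of the members, where 17.4% of all genes were called in either direction and 8.69% with a more positive difference on HFD, the direction of all 7. Of them 6 belong to S phase: Cdt1 (3.31 ± 0.48, adjusted p = 0.00277), Cdc6 (2.52 ± 0.70, adjusted p = 0.029), Mcm5 (1.83 ± 0.32, adjusted p = 0.00548), Mcm2 (1.56 ± 0.44, adjusted p = 0.0308), Mcm6 (1.46 ± 0.44, adjusted p = 0.0389) and Pcna (1.09 ± 0.27, adjusted p = 0.019). Mki67 was the mitotic member called (1.69 ± 0.29, adjusted p = 0.00518). In Cdt1 and Cdc6 the KO libraries lay below the WT libraries on NC and above them on HFD. With the WT HFD pair averaged to 1 sample 3 interactions were called (Cdt1, Mcm5 and Mki67), where 2.75% of all genes were called and 1.96% in this direction, and these 3 kept their call under every alternative. Leaving out 1 library gave 3 calls without WT NC replicate 2, WT HFD replicate 1 or KO HFD replicate 2, 4 without KO NC replicate 2 or WT HFD replicate 2, and up to 9 without KO NC replicate 1.

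Diet alone gave few calls among the members. In WT the differences were negative in 29 of 41 members (19 of 22 mitotic and 10 of 19 S phase), against 10035 of 18800 genes. Their median was -0.40, against -0.08 over all genes. After quantile normalization 18 members were positive, against 12 in the main fit. In WT, Cdt1, Mcm5 and Mki67 were called lower on HFD than on NC (-2.06 ± 0.34, -0.98 ± 0.23 and -0.82 ± 0.21, limma adjusted p of 0.00218, 0.0122 and 0.0178), 3 of 41 members against 18.0% of all genes in either direction and 9.22% called lower. Both WT HFD libraries lay below both WT NC libraries in 15 members, against 33.6% of all genes. Only Cdt1 kept its call when any 1 of the 4 WT libraries was left out or the WT HFD pair was averaged (2.87% of all genes were called in the latter fit): Mcm5 and Mki67 then had negative differences with adjusted p from 0.0554 to 0.112 and from 0.0726 to 0.135. After scaling to the same total 10 members were called, all lower on HFD, with the median of all genes at -0.48, and after upper-quartile scaling 6 were called, all lower, with that median at -0.20.

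In KO no member was called for HFD against NC by limma, as were 1.07% of all genes, although 14 members had an unadjusted p under 0.05. The differences were positive in 37 of 41 members, with medians of 0.66 for S phase and 0.86 for mitotic members and 0.03 over all genes, and both KO HFD libraries lay above both KO NC libraries in 28 of the 41, against 22.7% of all genes. Mki67 came to 0.88 ± 0.21 (adjusted p = 0.066) and Cdt1 to 1.25 with 221 and 293 in KO HFD against 134 and 84 in KO NC. Without KO NC replicate 1, Mki67, Cdt1, Top2a and Pcna were called, all higher on HFD (1.203, 1.59, 1.18 and 0.79, adjusted p from 0.00901 to 0.0457).

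Markers of other cell types differed between the same groups, to a different extent on each diet. Of the 13 macrophage markers, 12 were called higher in KO on HFD (median log2 fold change 3.99) and 11 on NC (median 2.03), with Mertk called on neither diet and Fcgr1 not on NC. Their summed level was 6703 and 6642 normalized counts in WT NC, 33021 and 19256 in KO NC, 3811 and 3843 in WT HFD and 37242 and 34691 in KO HFD, and Fcgr1 was listed at 0 in 1 WT HFD library. Lyz2, the most abundant of them, read 1453 and 1616, 14639 and 7251, 625 and 578, and 10872 and 9376. The mitotic members without Mki67 came to 12.5 and 18.7 counts per 100 macrophage counts in WT NC, 19.4 and 20.1 in WT HFD, 7.71 and 8.47 in KO NC and 8.41 and 11.1 in KO HFD, lower in each KO library than in each WT library. With Mki67 included this separation did not hold. The ratio was then higher in KO HFD replicate 2 (8091 mitotic against 34691 macrophage counts) than in WT NC replicate 1 (1458 against 6703). Mki67 itself came to 130 and 171 counts per 100 counts of Ptprc, the leukocyte marker CD45, in WT NC, 120 and 112 in KO NC, 128 and 241 in WT HFD and 118 and 128 in KO HFD. The part of macrophages in the members' differences was not tested.

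Of the 10 progenitor and fibroblast markers, 8 were called higher in KO on HFD (median 1.59), with sums of 71730 and 80865 in KO HFD against 22914 and 23456 in WT HFD, and none on NC (limma, 3 at an unadjusted p under 0.05, 5 positive and 5 negative, median -0.06). Col3a1 and Col1a1, the most abundant, read 35507 and 39287, and 19039 and 18472, in KO HFD against 13083 and 13180, and 4131 and 4189, in WT HFD. Endothelial markers were called higher in 3 of 8 cases on HFD (Pecam1, Vwf and Cldn5, median 0.67) and in none on NC, where all 8 were negative, 5 had an unadjusted p under 0.05 and the median was -0.66; Cdh5 and Pecam1 were the most abundant. Of 9 lymphocyte markers 5 passed the filter, all 5 with positive differences on HFD (median 1.90) and 2 of them called higher (none on NC by limma, 0 at an unadjusted p under 0.05). These 2, Cd4 and Cd79a, the most abundant, had at most 200 and 65 normalized counts in any library, while Cd3g was at 0 in both WT HFD libraries. The 5 mesothelial markers summed to at most 673 in any library, and on HFD 4 were negative and 1 positive (median -1.68), with Msln called lower (-3.37), Wt1 called higher (3.0 ± 0.30) and none called on NC (limma, 0 at an unadjusted p under 0.05). Of the most abundant of them, Wt1 stood at 310 and 531 in KO HFD and 46 and 54 in WT HFD and Upk3b at 9 and 93, and 36 and 58. The adipocyte markers went the other way on HFD: 9 of 11 were called lower in KO (median -1.50), and their sums were 351001 and 176000 in KO HFD, 583480 and 570855 in WT HFD, 352477 and 508674 in KO NC and 367393 and 379819 in WT NC. None was called on NC (limma, 0 at an unadjusted p under 0.05). For diet in KO, 12 of 13 macrophage, 10 of 10 progenitor and fibroblast and 8 of 8 endothelial markers were positive (medians of 0.79, 0.90 and 0.55) and 11 of 11 adipocyte markers negative (-0.76). For diet in WT, 11 macrophage, 5 progenitor and fibroblast, 4 endothelial and 2 lymphocyte markers were called lower on HFD (medians of -1.11, -0.92, -0.78 and -1.97), and 2 adipocyte markers higher (0.66). The part of these cell types in the members' differences was not tested.

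**Figure D5:**
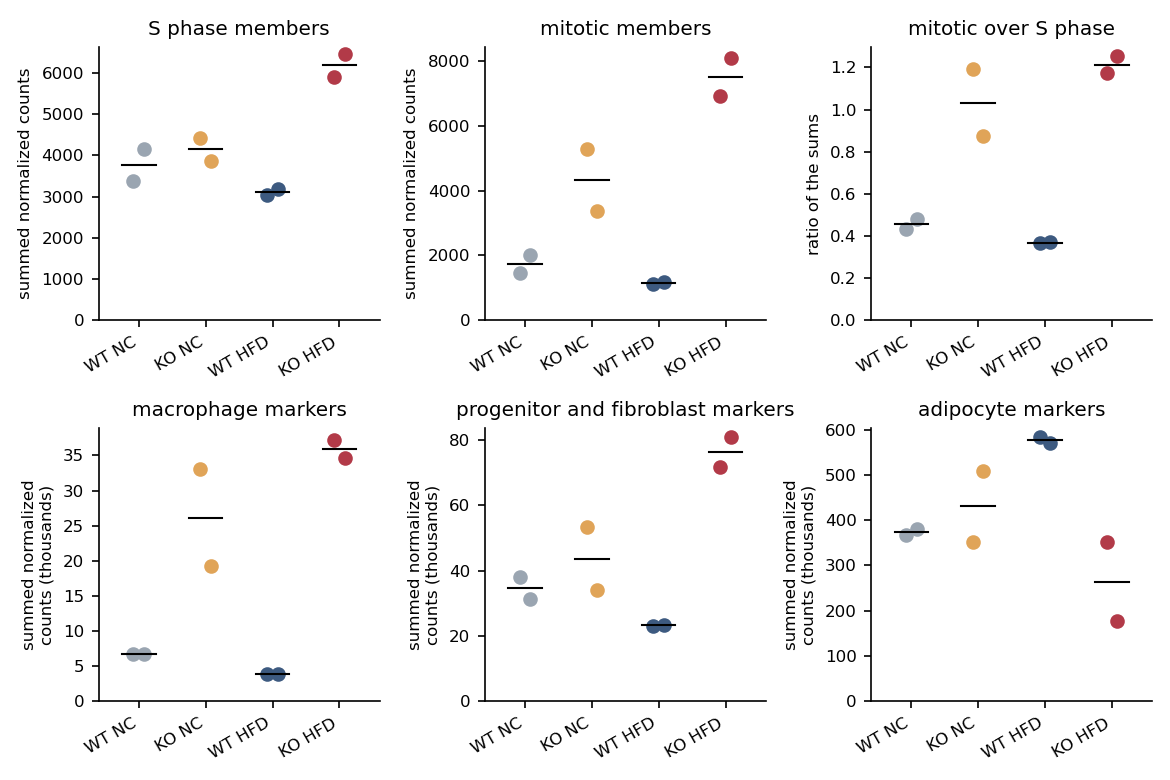
Summed normalized counts of the S phase and mitotic members and the ratio of the sums (upper row), and of the macrophage, progenitor and fibroblast, and adipocyte markers in units of 1000 counts (lower row); each point is 1 library and the line is the mean of the pair. The ratio lies between 0.366 and 0.481 in the WT libraries and between 0.872 and 1.25 in the KO libraries, and the macrophage markers separate the same libraries.

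Other genes of the pathway, listed by role and not by how they moved, are given beside the 17.1% of all genes called higher in KO on HFD. The difference between the lists was not tested. Of 38 further replication genes 16 were called higher in KO and 3 lower (Orc6, Gins4 and Rpa1, median 1.17), and of 40 further mitotic genes tested 30 were called higher and none lower (limma, median 2.02). Among the replication genes the largest called changes, leaving out genes that averaged under 50, were those of Chaf1b (3.71 ± 0.53), a chromatin assembly factor, Uhrf1 (2.46 ± 0.42), which maintains DNA methylation, and Tk1 (2.33 ± 0.30), thymidine kinase. Among the mitotic genes they were those of Hmmr (3.21 ± 0.48), Kif22 (2.91 ± 0.80) and Kif15 (2.59 ± 0.47), which encode a spindle protein and kinesin motors. On NC no further replication gene (9 at an unadjusted p under 0.05) and 3 further mitotic genes were called: Hmmr (1.93 ± 0.48), Dlgap5 (1.54 ± 0.30) and Knstrn (2.93 ± 0.67). Orc6 and Gins4, a subunit each of the origin recognition complex and of GINS, fell by 0.99 and 0.87 on the log2 scale on HFD, and Rpa1, which coats single-stranded DNA, fell by 0.74; these 3 were named after their values were seen.

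The regulators upstream of S phase were called in both directions. Of 22 genes of the G1 cyclins, their kinases and the RB and E2F family, 4 were called higher and 6 lower in KO on HFD (median 0.14). E2f8, a repressive E2F that is itself a target of the activating E2Fs, read 11 and 17 in WT NC, 95 and 54 in KO NC, 3 and 2 in WT HFD and 143 and 90 in KO HFD (5.05 ± 0.61), a change that rests on WT HFD values near the level of 3 reads. Cdk6 rose by 2.60 ± 0.27 on HFD, and E2f2 by 1.48 ± 0.49. Named after their values were seen, the remaining gene called higher was E2f7 (1.05 ± 0.32), and the 6 called lower were Rb1 (-1.15 ± 0.16), E2f6 (-1.09 ± 0.23), Ccnd3 (-0.88 ± 0.18), Ccnd2 (-0.78 ± 0.22), E2f3 (-0.71 ± 0.21) and Rbl2 (-0.69 ± 0.16). In the CDK inhibitor and p53 list 3 of 11 genes were called higher and 2 lower (median 0.16). Mdm2, the ubiquitin ligase of p53, rose by 1.63 ± 0.15, Trp53 by 0.78 ± 0.23 and Cdkn1a by 0.76 ± 0.18, whereas the inhibitor Cdkn2b fell by 1.83 and cyclin G1 (Ccng1) by 1.25 on the log2 scale. Replication-dependent histones, whose transcripts lack poly(A) tails and which libraries made by ribosomal depletion can hold, summed to 2457 and 1988 in KO HFD and 3029 and 3093 in WT HFD. Although these sums were lower in KO HFD, the median log2 fold change of the 31 histone genes tested was 0.90, with 21 positive and 10 negative. On HFD 29.0% of the 31 were called, against 32.2% of all genes. Of the 31, 6 were called higher and 3 lower in KO, the latter being Hist1h2be (-2.03 ± 0.37), Hist1h2bc (-1.12 ± 0.26) and Hist1h1c (-0.62 ± 0.19). The 6 called higher averaged under 50 normalized counts.

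The 5 further genes of these lists whose values over the 8 libraries were most like the summed members on the log2 scale were Chaf1b (Pearson r = 0.969), Mdm2 (0.967), Smc4 (0.964), Ncaph (0.961) and Smc2 (0.958). Smc4, Ncaph and Smc2 encode condensin, which compacts mitotic chromosomes. Mdm2 read 1681 and 1614 in WT NC, 3529 and 2953 in KO NC, 1437 and 1633 in WT HFD and 4628 and 4842 in KO HFD. The points share 4 groups of 2 libraries, so these values are a description.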

How the data were processed

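A set of 8 RNA-seq libraries of mouse epididymal adipocytes was analysed. Per the labels and methods, the authors depleted ribosomal RNA from 20 ng of total RNA, made stranded libraries, trimmed reads with Reaper, aligned them with STAR 2.5.2b to mm10 and counted them with featureCounts 1.5.1, without reads on several genes or sites. Strand use in counting was not given in the sources used here. The deposited values are a score: as their spacing shows, read counts scaled by the authors with a factor for each library, then rounded (the method of the factors was not given in the sources used here, and DESeq2 1.14.1 is the tool named for testing). Whole reads were not recovered, and no count model was run. Groups came from the labels.

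Here log2(value + 1) was fitted with limma 3.58.1 (R 4.3.3), 4 group means in 1 fit with a variance trend, for genes with a mean of at least 5, and p-values were adjusted over all 18800 genes tested. A call asks for an adjusted p of 0.05 or less with a change of 0.59 or more on the log2 scale; ± is the SE. The steps were tested on simulated data. Python 3.11.15, numpy 2.4.6, pandas 2.3.3 and matplotlib 3.10.9 were used. Levels per kb use GENCODE vM21 exon lengths. All members are described by role; of other lists up to 3 called genes by size with a mean of at least 50, and of marker lists the 2 most abundant, are named. The members, lists and tests were chosen with earlier results of these data known. Alternatives were other pseudocounts, filters, scalings, fits, a replicate block, the WT HFD pair averaged, and each library left out.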

Additional observations from a re-analysis of the deposited data

Results flagged for a closer look

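In 7 members the difference of KO from WT was more positive on HFD than on NC. The test was of the difference itself, the interaction term of limma. Cdc6 changed sign, with -1.33 on NC and 1.19 on HFD, and was called on neither diet. The differences of Cdt1, Mcm5 and Mcm2 on NC were also negative (-0.43, -0.26 and -0.04). The differences of the log2 fold changes were 3.314 for Cdt1, 2.518 for Cdc6, 1.825 for Mcm5, 1.694 for Mki67, 1.556 for Mcm2, 1.464 for Mcm6 and 1.092 for Pcna. Cdt1, Mcm5 and Mki67 kept this call under every alternative, and Cdc6, Mcm2, Mcm6 and Pcna lost it when the WT HFD pair was averaged to 1 sample (adjusted p of 0.0908, 0.0679, 0.121 and 0.0885). The 7 are 17.1% of the members, where 17.4% of all genes were called in either direction and 8.69% in the direction of the 7. With the pair averaged, 3 members were called, where 2.75% of all genes were called and 1.96% in that direction. The same term was called for 12 of the 13 macrophage markers (median 1.87), 9 of the 10 progenitor and fibroblast markers (median 1.72), 7 of the 8 endothelial markers (median 1.39) and 8 of the 11 adipocyte markers in the other direction (median -1.40), and their part in the members' values was not tested.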

How the results depend on the processing

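The members called in KO against WT on HFD stayed between 21 and 32 in every alternative (of 41 tested, and 24 of the 33 tested where the filter was a mean of 50), and no called value changed sign. On NC, where 2 were called, 1 was called with no filter on low values, in a fit of only the groups compared and with the WT HFD pair averaged, and 1 to 4 without 1 library. In WT, the 3 members called lower on HFD became 10 after scaling to the same total, 6 after upper-quartile scaling and 1 with the WT HFD pair averaged, and 1 without each WT library in turn. In KO, 0 were called, 1 with a pseudocount of 8, 1 after quantile normalization and 0 to 4 without 1 library. For the interaction, 7 were called, 3 with no filter, 12 after scaling to the same total, 3 with the WT HFD pair averaged and 3 to 9 without 1 library. After quantile normalization 3 members were called on NC. The cause of these differences between settings was not tested. The S phase median minus the mitotic median, -1.08 on NC, ranged from -1.31 to -0.64 without 1 library, and for the interaction, -0.48, it was 0.0136 after quantile normalization and -0.80 to -0.22 without 1 library. Scaling to the same total moved the share of all calls that were higher from 53.1% to 77.2% on HFD, from 48.7% to 11.6% for diet in WT and from 49.9% to 80.8% for the interaction, and the median of all genes from 0.10 to 0.52 for the interaction.

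Replicate numbers did not pair the libraries: correlations of the deviations of same-numbered libraries lay between -0.107 and 0.04. A replicate block gave 29, 2, 4, 0 and 7 members for KO on HFD, KO on NC, diet in WT, diet in KO and the interaction, and 720 of all genes on NC against 886 and 112 against 202 for diet in KO. With the numbers crossed, chosen after seeing the data, diet in KO gave 2 members and 700 genes. DESeq2 and edgeR were not run, since the rounded values do not return whole reads. Of the members, 8 had a mean under 50, 7 of them mitotic, and the interval of Ube2c on HFD ran from -0.64 to 4.68.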

Other observations

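Per kb of exon, Pcna had the highest mean of the members in each of the 4 groups, and Mki67 came next in both KO groups but not in the WT groups. In WT HFD Pcna read 240 normalized counts per kb and Mki67 38.6, and in KO HFD they read 547 and 399. Over the 8 libraries Bub1 was the lowest of the members, with a mean of 4.56 normalized counts per kb, but not in each group. In KO HFD it read 11.5 per kb, above Ube2c (7.5), Ccnb1 (7.94) and Cenpf (9.78). In WT HFD it read 1.49, above Ccnb1 (1.30).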
